A study of Mus musculus with 4 samples.

Results

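The imprinted genes examined here are 34 mouse genes known to be expressed mainly from one parental allele in at least one tissue, chosen by name. Of these 34 genes, 27 have a row among the 30049 Ensembl genes of the deposited table of TPM values (transcript abundance per fixed library total, corrected for transcript length). The other 7 (H19, Airn, Meg3, Rian, Kcnq1ot1, Nespas and Peg13) are long noncoding RNAs, and their levels are not analysed here. Promoter sequences of Airn, Meg3, Rian and Kcnq1ot1 are counted below. The table holds 52 of the 10155 long noncoding genes of the GENCODE M21 annotation, against 21258 of its 22028 protein-coding genes.

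RNA was sequenced from wild-type 2-cell mouse embryos of the cross BDF1*BDF1 (F2), BDF1 being the first generation of C57BL/6 × DBA/2. Control zygotes, taken 18 h after hCG by the sample labels, spent 24 h in KSOM, a culture medium for early embryos, and treated zygotes spent those 24 h in KSOM with 2% dimethyl sulfoxide (DMSO), a common solvent and cryoprotectant. There are 2 control libraries and 2 DMSO libraries, 50 embryos being collected per group. Nothing in the labels says that the 2 libraries of a group came from separate collections of embryos, so the p-values measure only the spread between these libraries. Alleles are not separated in the table, and a TPM value is the sum over both parental copies.

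Imprinted expression depends on a DNA methylation mark set in the egg or the sperm, or on a histone mark set in the egg. Such a mark leads to one copy being silent after fertilization. These marks have to survive the demethylation of the early embryo. Many maternally expressed imprinted genes restrain growth of the embryo and placenta, and many paternally expressed ones promote it. At the 2-cell stage the embryo still holds RNA stored by the oocyte while its own genome is being switched on, so that a level can include both.

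The table gives no read totals. Its TPM values summed to 768174 and 780527 in control replicates 1 and 2 and to 772487 and 799166 in DMSO replicates 1 and 2. The totals of the genes listed are thus not equal between libraries. The 20 genes with the highest levels held 22.2% and 23.6% of the summed TPM in control replicates 1 and 2 and 29.4% and 35.1% in DMSO replicates 1 and 2. Pairs of values below follow the same order, replicate 1 before replicate 2 and control before DMSO.

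Markers of the 2-cell stage were present in all libraries. Of 9 such markers 8 were above 1 TPM in each library, and their sum was 877 and 631 TPM in control embryos against 2426 and 1702 TPM after DMSO, with Tcstv3 the most abundant. By the test described below 4 of the 8 tested (Tcstv1, Tcstv3, Usp17lc and Zfp352) were called higher, beside 20.5% of all genes called and 6.42% called higher. The 10 oocyte markers summed to 1139 and 724 TPM against 2902 and 2234 TPM, most of it from Oosp1. Of the 9 oocyte markers tested Oosp1 and Bmp15 were called higher, beside the same 6.42%, and Zp3 and Mos had lower values in both DMSO libraries (limma log2 differences of -0.42 and -0.54, not called). Both summed levels were thus higher in both DMSO libraries than in either control library. Of the 10 markers of cumulus and granulosa cells, the ovarian cells that surround the egg, Amh and Inhba were listed at 0 in all 4 libraries. The cumulus and granulosa markers summed to 2.78 and 1.73 TPM against 4.52 and 3.14 TPM, each gene staying at or below 2.10 TPM. Cyp11a1, the 1 gene of them tested, passed the filter on low values only through the DMSO libraries and was not called. The 6 sperm markers summed to 2.96 and 3.38 TPM against 13.5 and 8.69 TPM, mostly from Prm2. Prm2, which packages sperm DNA, was called higher (limma adjusted p = 0.0408). Tnp1, at 0.281 and 0 TPM against 2.08 and 1.69 TPM, passed the filter on low values only through the DMSO libraries, so that its call is not counted as a result. Prm1 was at 0 and 0.526 TPM against 0.267 and 0 TPM, and Tnp2 was listed at 0. The 7 blastocyst markers summed to 14.4 and 9.56 TPM against 10.9 and 9.28 TPM, with Krt8 the most abundant in control embryos and Krt18 after DMSO, and limma called 0 of the 3 tested. The 1 with an unadjusted p-value under 0.05, beside 4835 of all 12038 genes tested, was Gata6. Gata6 had a mean above 1 TPM only in the control libraries. The part of these differences in the results below was not tested.

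In control embryos 14 of the 27 imprinted genes, or 51.9%, had a mean above 1 TPM, and in DMSO-treated embryos 16 did, or 59.3%. For all genes of the table the shares were 39.1% and 39.4%, and for its protein-coding genes 49.4% and 49.9%. The 12 genes above 1 TPM in both groups were Grb10, Impact, Mest, Plagl1, Ube3a, Cdkn1c, Phlda2, Gnas, Mcts2, H13, Inpp5f and Trappc9, and all of these but Trappc9 were above it in each of the 4 libraries. Sgce and Zdbf2 were above 1 TPM in the control mean alone, and Igf2, Zim1, Snrpn and Ascl2 in the DMSO mean alone. The remaining 9 genes were below it in both groups. The most abundant imprinted gene in control embryos was Phlda2 at a mean of 83.9 TPM, above 95.0% of the genes in the table, followed by Mcts2 at 66.7, Inpp5f at 31.5, Ube3a at 22.0, Grb10 at 17.9, H13 at 17.8, Gnas at 16.9 and Mest at 11.03 TPM. Phlda2 and Mcts2 did not overlap with each other or with the genes below them in the 2 control libraries, whereas Grb10, H13 and Gnas overlapped. Summed over the 27 genes, imprinted transcripts made up 293 and 280 TPM in control embryos and 319 and 275 TPM after DMSO, and these ranges overlap.

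**Figure D1:**
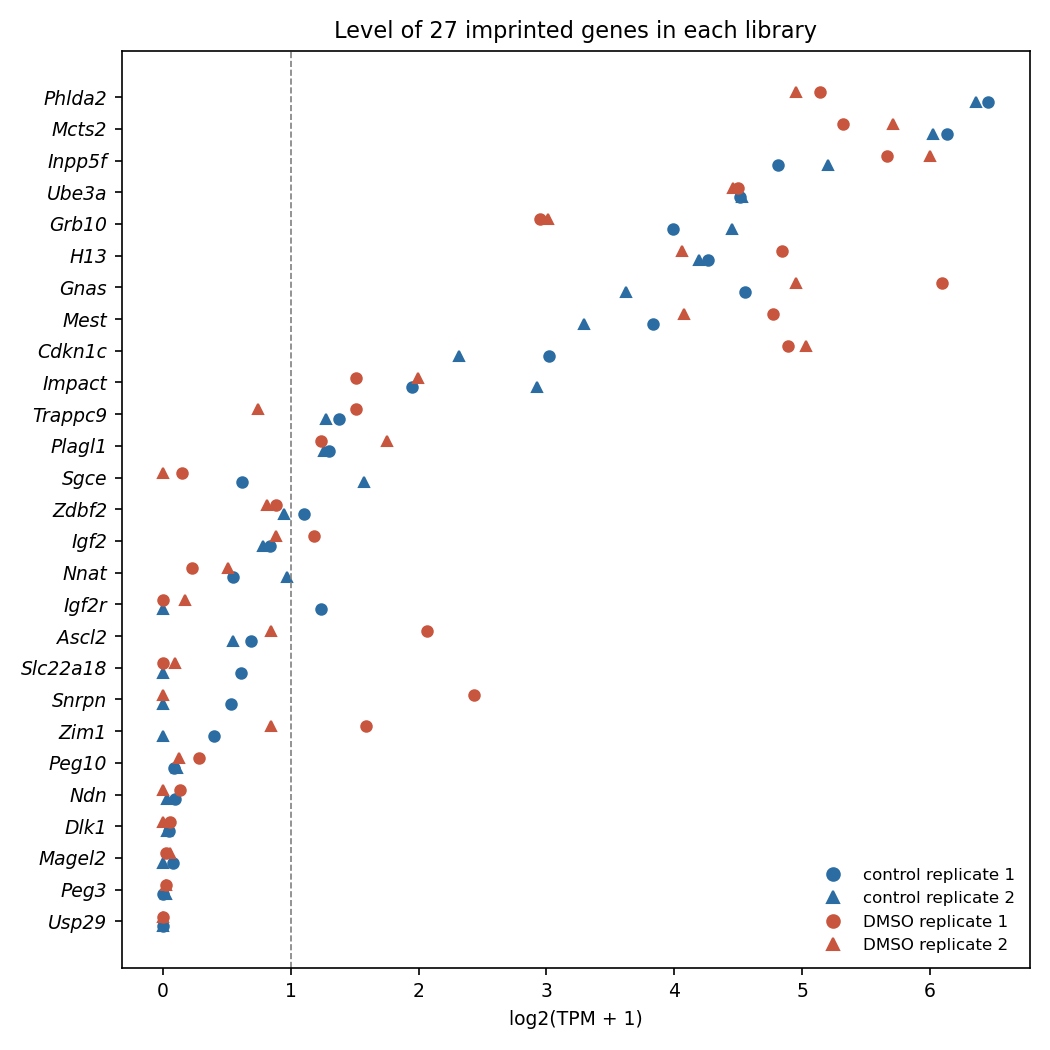
Level of each of the 27 imprinted genes as log2(TPM + 1), ordered by the mean of the control libraries, with 1 point per library and the dashed line at 1 TPM. Phlda2 and Mcts2 were the most abundant in control embryos, and 9 genes were below 1 TPM in the means of both groups.

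The comparison of DMSO-treated with control embryos asks which of these transcripts changed with the treatment. It was fitted with limma on log2(TPM + 1) over the 12038 genes whose mean reached 1 TPM, and p-values were adjusted over all of them. Fold changes are on that scale, which understates those of low genes. A level in such pooled RNA is relative to the rest of the library, and fewer embryos or cells with a transcript cannot be told apart from less of it per cell. Of the 27 imprinted genes 14 passed the filter on low values, Snrpn and Ascl2 only through the DMSO libraries. limma called 3 of the 14 genes at an adjusted p-value under 0.05, beside 20.5% of all genes tested, so that the share of imprinted genes called, 21.4%, was close to the background. Cdkn1c rose, beside 6.42% of all genes called higher, and Phlda2 and Grb10 fell, beside 14.1% called lower. The values of 9 of the 14 genes did not overlap between the groups, 5 being higher and 4 lower, beside 69.8% of all genes tested (31.1% higher and 38.7% lower). The 4 lower genes include Ube3a, whose log2 fold change was only -0.04. With the replicate number as a term of the fit, 6 of the 14 were called, beside 42.6% of all genes. Those called in addition were Mest, Gnas and Inpp5f. The median log2 fold change of the 14 genes was 0.22 and that of all genes tested -0.09, and without DMSO replicate 1 the median of the 14 genes was -0.12. Leaving out Snrpn and Ascl2, an alternative chosen after seeing the data, the values of 8 of 12 genes did not overlap, 4 being higher and 4 lower, and the median was 0.08. Among the 10639 genes that averaged 1 TPM or more in each group, 68.6% did not overlap and the median was -0.09. Of all genes called 31.3% were higher, and after quantile normalization, which moved the median of all genes to 0.01, 49% were higher. For 1 gene in 2 libraries against 2, the smallest p-value an exact two-sided permutation test allows is 0.33.

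**Figure D2:**
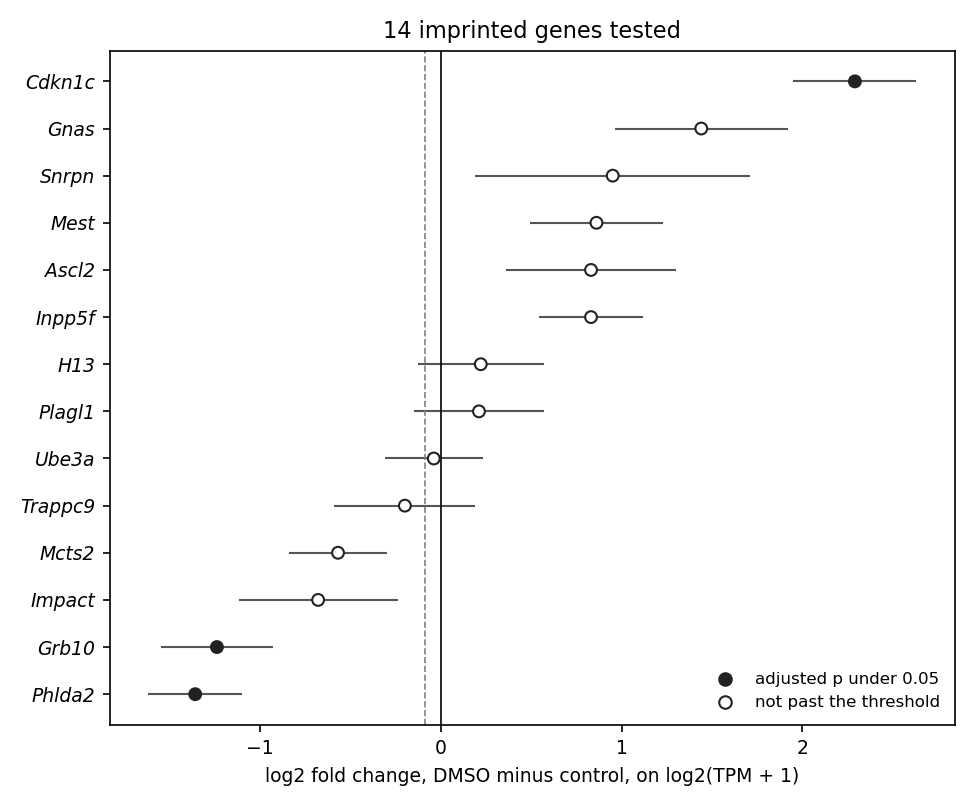
Log2 fold change (DMSO minus control, on log2(TPM + 1)) of the 14 imprinted genes tested, with bars of 1 standard error from limma, filled points for an adjusted p-value under 0.05, and a dashed line at -0.09, the median of all genes tested. Cdkn1c lies at 2.29, and Grb10 and Phlda2 lie at -1.24 and -1.36.

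Cdkn1c (ENSMUSG00000037664, chromosome 7 of GRCm38 from 143458339 to 143461050) encodes p57, an inhibitor of cyclin-dependent kinases. It measured 7.11 and 3.99 TPM in control embryos and 28.7 and 31.6 TPM after DMSO. Both DMSO libraries were far above both control libraries, and the ratio of the means was 5.43. Its log2 fold change was 2.29 ± 0.34 (SE, limma adjusted p = 0.0184). Phlda2 (ENSMUSG00000010760, chromosome 7 from 143501545 to 143503150) encodes a small protein with a pleckstrin homology domain that limits growth of the placenta. It had control values of 86.9 and 81.0 TPM and DMSO values of 34.2 and 30.0 TPM. The replicates of each group lay close together, the control mean was 2.61 times the DMSO mean, and the log2 fold change was -1.36 ± 0.26 (SE, limma adjusted p = 0.0238). Grb10 (ENSMUSG00000020176, chromosome 11 from 11930508 to 12038683) encodes an adaptor that dampens signalling from the insulin and IGF1 receptors. It is expressed from the maternal copy, but from the paternal copy in neurons. It measured 14.9 and 20.9 TPM in control embryos and 6.73 and 7.08 TPM after DMSO. The DMSO libraries were below both control libraries, the control mean was 2.59 times the DMSO mean, and the log2 fold change was -1.24 ± 0.31 (SE, limma adjusted p = 0.0398). None of the 31-base words of Cdkn1c, Phlda2 or Grb10 transcripts occurred in transcripts of other genes of the table. Transcripts of genes without a row were not searched, so sharing of reads with those was not tested.

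The calls did not hold without some of the libraries, nor without the filter on low values, where limma called 0 of 22257 genes. Without control replicate 1, control replicate 2 or DMSO replicate 1, limma called 0 of the 12038 genes (3745, 2602 and 3078 had an unadjusted p-value under 0.05), and without DMSO replicate 2 Cdkn1c, Phlda2 and Gnas were called and Grb10 was not (adjusted p = 0.0806). That setting also called Snrpn, whose 1 remaining DMSO value is the one through which it passed the filter, so that its call is not counted as a result. Grb10 was not called after median-ratio scaling (log2 fold change -1.19, adjusted p = 0.0523) or quantile normalization (-1.13, adjusted p = 0.0548) either, its fold change staying close to -1.24. After these 2 scalings the log2 fold change was -1.31 and -1.11 for Phlda2 and 2.33 and 2.40 for Cdkn1c, both genes still being called. With 1 library left out at a time the log2 fold change was between 1.94 and 2.64 for Cdkn1c, between -1.45 and -1.27 for Phlda2 and between -1.47 and -1.01 for Grb10, and the adjusted p-values over all alternatives ran from 0.00323 to 0.155, from 0.00441 to 0.168 and from 0.0107 to 0.262 in the same order.

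**Figure D3:**
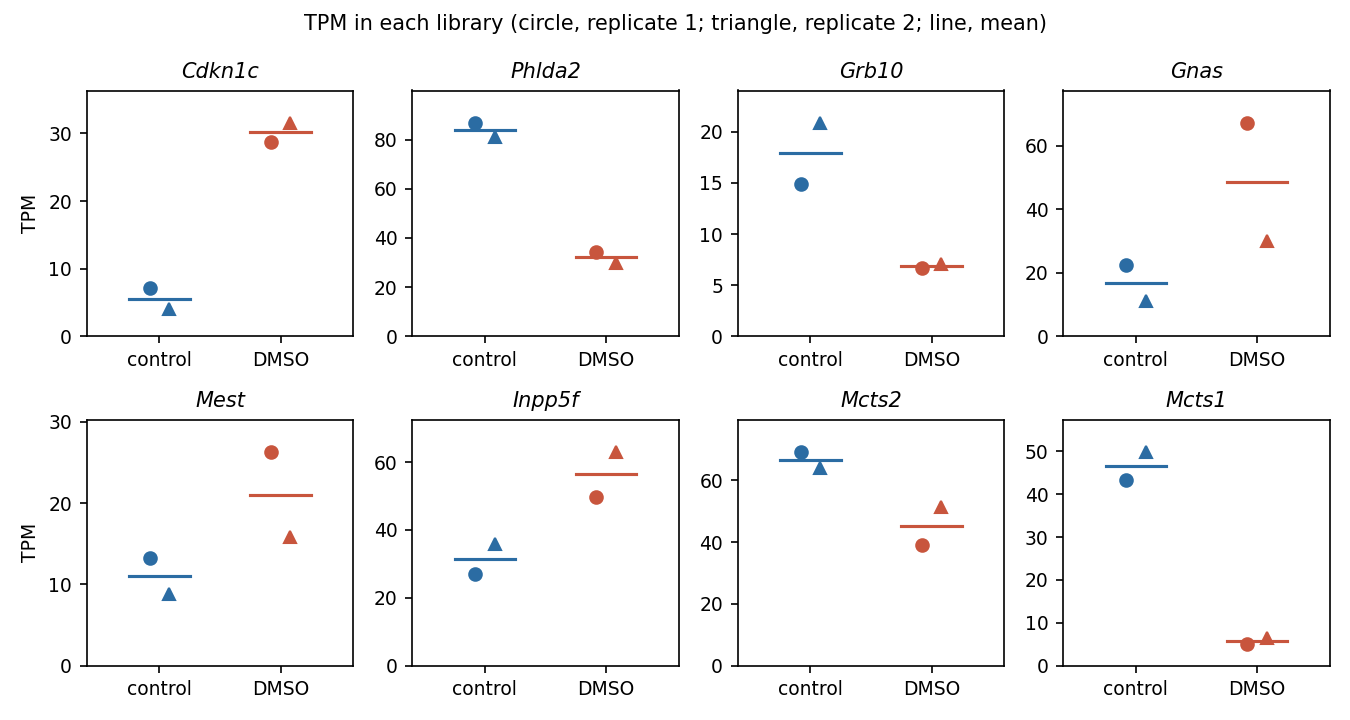
TPM of 7 imprinted genes and of Mcts1 in each library, with linear axes from 0, circles for replicate 1, triangles for replicate 2 and lines for the group mean. The groups do not overlap for any of the 8 genes shown, beside 69.8% of all genes tested. The 5 tested imprinted genes whose groups overlap are not shown, nor are Ube3a and Ascl2, whose groups do not. Cdkn1c, Phlda2, Grb10 and Mcts1 are those shown with an adjusted p-value under 0.05, beside 20.5% of all genes tested.

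Cdkn1c and Phlda2 belong to one imprinted domain, in which the noncoding RNA Kcnq1ot1, made from the paternal copy, silences neighbouring genes on that copy. Their starts are 42.1 kb apart, 164.5 and 206.6 kb from the start of Kcnq1ot1, and one rose while the other fell. Between them lies Slc22a18, which encodes a transporter and had control values of 0.528 and 0 TPM and DMSO values of 0 and 0.0673 TPM. Ascl2, a transcription factor of the trophoblast, lies at the other end of the domain. It measured 0.616 and 0.463 TPM in control embryos and 3.18 and 0.799 TPM after DMSO, the higher mean coming mostly from DMSO replicate 1 (limma log2 fold change 0.83 ± 0.47 SE, adjusted p = 0.225). Without DMSO replicate 1 the log2 fold change of Ascl2 was 0.23, and without DMSO replicate 2 it was 1.44. Of the other genes of the domain, Tssc4 was at 24.7 and 20.4 TPM against 13.6 and 16.4 TPM (limma adjusted p = 0.196), and Osbpl5, a lipid transfer protein, was at 1.94 and 1.14 TPM against 3.07 and 3.28 TPM (limma adjusted p = 0.163). Neither passed the threshold, although the groups did not overlap. Cd81 stayed below 0.6 TPM, Tspan32 was listed at 0 in all libraries, and Kcnq1 was at 2.00 TPM in DMSO replicate 2 and listed at 0 in the others.

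**Figure D4:**
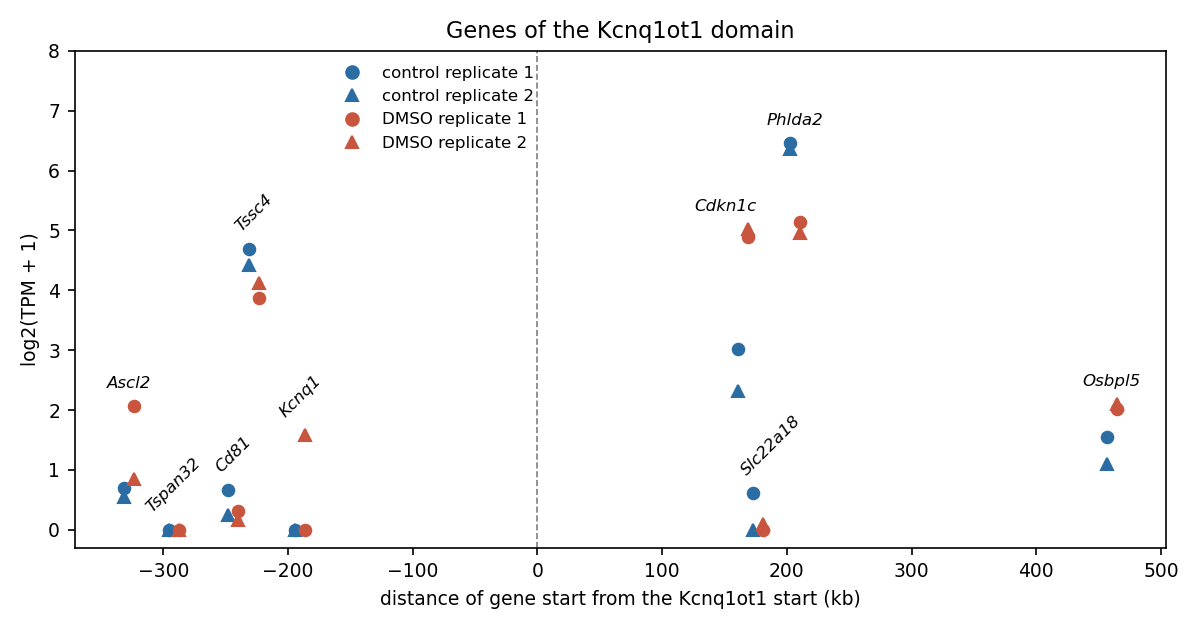
Level of 9 genes of the Kcnq1ot1 domain as log2(TPM + 1) against the distance of each gene's start from that of Kcnq1ot1 in kb, with 1 point per library (control shifted to the left and DMSO to the right of the true position). Cdkn1c was higher and Phlda2, 42.1 kb further along, lower in both DMSO libraries.

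Windows around a start of Phlda2 and of Grb10, which both fell, and of Mest, which is expressed from the paternal copy, are shown because promoters of imprinted genes are often rich in the CpG pairs that carry methylation. Each runs from 250 bases before to 50 bases after the transcript start (RefSeq, GRCm38.p6), written 5′ to 3′ on the strand of the gene. Capitals mark TGCCGC or its reverse complement GCGGCA, the letters that the imprint-protecting protein ZFP57 reads when methylated.
Phlda2, chr7:143502475-143502774, minus strand: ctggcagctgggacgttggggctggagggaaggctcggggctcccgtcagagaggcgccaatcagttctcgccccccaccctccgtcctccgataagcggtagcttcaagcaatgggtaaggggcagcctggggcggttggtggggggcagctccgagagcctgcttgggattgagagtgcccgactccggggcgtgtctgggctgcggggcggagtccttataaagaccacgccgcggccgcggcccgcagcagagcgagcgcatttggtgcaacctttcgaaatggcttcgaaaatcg
Grb10, chr11:12037371-12037670, minus strand: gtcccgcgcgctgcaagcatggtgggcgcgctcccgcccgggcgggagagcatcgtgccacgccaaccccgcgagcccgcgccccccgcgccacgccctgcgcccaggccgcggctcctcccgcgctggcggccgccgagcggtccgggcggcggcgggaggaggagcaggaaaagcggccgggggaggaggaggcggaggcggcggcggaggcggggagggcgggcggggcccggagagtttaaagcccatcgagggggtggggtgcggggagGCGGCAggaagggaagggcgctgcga
Mest, chr6:30737800-30738099, plus strand: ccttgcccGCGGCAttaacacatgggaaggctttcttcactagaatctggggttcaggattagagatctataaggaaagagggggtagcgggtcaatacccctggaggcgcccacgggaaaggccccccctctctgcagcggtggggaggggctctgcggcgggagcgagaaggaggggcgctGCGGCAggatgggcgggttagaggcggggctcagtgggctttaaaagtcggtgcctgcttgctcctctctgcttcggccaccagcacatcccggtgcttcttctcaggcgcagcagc
The Phlda2 window holds 26 CpG pairs and no copy of the 6 letters, this Grb10 window 45 CpG pairs and 1 copy, and this Mest window 17 CpG pairs and 2 copies. RefSeq gives other starts as well. Another Grb10 window holds 9 CpG pairs and no copy, another Mest window 8 CpG pairs and no copy, and a further Mest window, which overlaps nearly all of the one printed, 17 CpG pairs and 2 copies. The median over all 32851 promoter windows was 7 CpG pairs, and over the 40 windows of imprinted genes it was 15. The 6 letters, which hold a CpG pair themselves, were searched on both strands. They occurred in 11.6% of all windows and in 11 of 40 windows (27.5%) of the 26 imprinted genes with a window. Counted per gene, they occurred in 10 of these 26 (38.5%), beside 13.1% of all genes with a window. The 26 include the noncoding genes Airn, Kcnq1ot1, Meg3 and Rian, whose levels are not in the table. Cdkn1c, which rose, had no window in the set used. Methylation is not part of these data.

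Among the paternally expressed genes Mest was the most abundant in control embryos after Mcts2 and Inpp5f. Mest, whose protein has the fold of a hydrolase, had control values of 13.3 and 8.78 TPM and DMSO values of 26.3 and 15.8 TPM. The groups did not overlap, but the difference did not pass the threshold (limma log2 fold change 0.86 ± 0.37 SE, adjusted p = 0.132). Without DMSO replicate 1 the log2 fold change of Mest was 0.51, and without DMSO replicate 2 it was 1.21. Copg2, a coat protein of Golgi vesicles, overlaps the end of Mest by 912 bases on the opposite strand. It measured 11.7 and 6.19 TPM in control embryos and 24.8 and 18.96 TPM after DMSO (limma log2 fold change 1.25 ± 0.37 SE, adjusted p = 0.0575). Since 22% of the 31-base words of Mest also occur in Copg2 and the counting is not stated to use strand, reads in the shared stretch cannot be told apart. Plagl1, a zinc finger transcription factor that regulates other imprinted genes, had control values of 1.46 and 1.40 TPM and DMSO values of 1.36 and 2.36 TPM, and the groups overlapped (limma log2 fold change 0.21 ± 0.36 SE, adjusted p = 0.675). Igf2, the fetal growth factor, measured 0.787 and 0.716 TPM in control embryos and 1.27 and 0.847 TPM after DMSO, below the filter. Igf2r, the receptor that clears IGF2, was at 1.36 TPM in control replicate 1 and at 0 to 0.130 TPM in the other libraries. Peg3, a zinc finger protein, stayed below 0.02 TPM, and Peg10, a retrotransposon-derived gene needed for the placenta, between 0.0636 and 0.214 TPM.

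Gnas and Inpp5f had higher values in both DMSO libraries than in either control library, without passing the threshold. Gnas encodes the alpha subunit of the stimulatory G protein and is imprinted in some tissues. It had control values of 22.5 and 11.3 TPM and DMSO values of 67.3 and 30.0 TPM (limma log2 fold change 1.44 ± 0.48 SE, adjusted p = 0.0764). Replicate 1 was the higher in both groups, and the log2 fold change was 0.87 without DMSO replicate 1 and 2.01 without DMSO replicate 2. Gm20721, on the opposite strand, overlaps 16394 bases of the gene, and 11.6% of the 31-base words of Gnas occur in it. It measured 0 and 2.96 TPM in control embryos and 20.5 and 25.0 TPM after DMSO (limma log2 fold change 3.57 ± 0.63 SE, adjusted p = 0.0221), and between 2.58 and 4.56 on the log2 scale with 1 library left out at a time. The split of reads between the pair is an estimate. Inpp5f, an inositol phosphatase of which a shorter transcript is imprinted in the brain, had control values of 27.1 and 35.9 TPM and DMSO values of 49.7 and 63.0 TPM (limma log2 fold change 0.83 ± 0.29 SE, adjusted p = 0.0848). The table sums all transcripts of a gene, so the imprinted transcripts of Gnas and Inpp5f are not seen apart from the others.

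Mcts2 is a retrogene, a copy made from the RNA of the X-linked gene Mcts1, and lies within an intron of H13. Both copies encode a protein that works in restarting translation, and Mcts2 is expressed from the paternal copy. The first 90 coding bases of each (read from GENCODE M21 transcripts, capitals marking the 15 bases that differ) are shown because the copies are alike in sequence and yet had unlike values after DMSO.
Mcts1: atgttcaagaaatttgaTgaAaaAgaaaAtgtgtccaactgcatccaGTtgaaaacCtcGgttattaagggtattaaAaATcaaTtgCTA
Mcts2: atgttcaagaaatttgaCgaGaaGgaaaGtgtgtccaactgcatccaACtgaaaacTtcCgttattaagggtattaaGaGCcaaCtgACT
Over the 546 coding bases they are 85.2% identical, and no 31-base word of either occurs in transcripts of other genes of the table. Mcts1 fell from 43.4 and 49.9 TPM to 4.96 and 6.5 TPM (limma log2 fold change -2.83 ± 0.29 SE, adjusted p = 0.0181). Mcts2 measured 69.2 and 64.1 TPM in control embryos and 38.9 and 51.3 TPM after DMSO (limma log2 fold change -0.57 ± 0.27 SE, adjusted p = 0.167). The ratio of Mcts2 to Mcts1 was 1.6 and 1.28 in control embryos and 7.86 and 7.88 after DMSO, without overlap, and the difference between the 2 fold changes was not tested. Without any one library Mcts1 lay between -3.00 and -2.66 and Mcts2 between -0.76 and -0.37 on the log2 scale. After median-ratio scaling Mcts2 was at -0.52 and after quantile normalization at -0.29. H13, the host gene and a protease that cuts signal peptides within the membrane, had control values of 18.2 and 17.3 TPM and DMSO values of 27.6 and 15.7 TPM, and the groups overlapped (limma log2 fold change 0.22 ± 0.35 SE, adjusted p = 0.651).

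Impact, an inhibitor of the stress kinase GCN2, measured 2.86 and 6.60 TPM in control embryos and 1.86 and 2.996 TPM after DMSO (limma log2 fold change -0.68 ± 0.44 SE, adjusted p = 0.276), and the groups overlapped. Its fold change was -1.17 without control replicate 1 and -0.19 without control replicate 2. Ube3a, an E3 ubiquitin ligase imprinted in neurons, had nearly the same level throughout, at 21.9 and 22.1 TPM against 21.6 and 20.96 TPM. Its log2 fold change was -0.04 ± 0.27 (SE, limma adjusted p = 0.909), and 0.00 and 0.14 after median-ratio scaling and quantile normalization. Trappc9, a subunit of a vesicle tethering complex, had control values of 1.598 and 1.42 TPM and DMSO values of 1.84 and 0.677 TPM (limma log2 fold change -0.20 ± 0.39 SE, adjusted p = 0.723), and the groups overlapped. Snrpn, a core protein of spliceosomal particles, was at 4.40 TPM in DMSO replicate 1, at 0.450 TPM in control replicate 1 and listed at 0 in both replicates 2 (limma log2 fold change 0.95 ± 0.76 SE, adjusted p = 0.378). Snurf, which is encoded upstream on the same transcript as Snrpn, measured 9.44 and 0 TPM in control embryos and 22.7 and 6.98 TPM after DMSO (limma adjusted p = 0.189). All 31-base words of Snurf and 23.7% of those of Snrpn occur in Gm38393, which measured 2.93 and 5.5 TPM against 1.26 and 1.18 TPM (limma log2 fold change -1.19 ± 0.38 SE, adjusted p = 0.0685), the opposite direction. The values of Snurf and Snrpn are therefore uncertain.

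The other imprinted genes were low. Sgce, a sarcoglycan, had control values of 0.537 and 1.98 TPM and DMSO values of 0.109 and 0 TPM. Zdbf2, which encodes a zinc finger protein, was at 1.148 and 0.930 TPM against 0.841 and 0.761 TPM. Nnat, a small membrane protein of the nervous system, was at 0.459 and 0.964 TPM against 0.174 and 0.425 TPM, and its neighbour on the opposite strand, Blcap, at 24.0 and 24.7 TPM against 22.9 and 25.4 TPM. Zim1, a maternally expressed zinc finger gene next to Peg3, was at 0.320 and 0 TPM against 2.01 and 0.795 TPM. Of the 12 imprinted genes below the filter and above 0 in at least 1 library, 6 did not overlap between the groups, beside 32.2% of the 10219 such genes in the table. Sgce, Zdbf2 and Nnat had lower and Zim1, Igf2 and Peg10 higher values in both DMSO libraries than in either control library, and none of them was tested. Ndn, Magel2 and Dlk1 stayed below 0.1 TPM, and Usp29 was listed at 0 in all libraries.

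Of 26 genes that set, protect, read or erase imprints, 24 were tested and 3, or 12.5%, were called, all lower, beside 20.5% of all genes tested called and 14.1% called lower. With the replicate number as a term of the fit 8 were called, 3 higher and 5 lower, beside 42.6% of all genes. Their median log2 fold change was -0.43. Ehmt1, a methyltransferase for histone H3 lysine 9, fell from 46.1 and 67.8 TPM to 22.9 and 27.1 TPM (limma log2 fold change -1.13 ± 0.30 SE, adjusted p = 0.0449). Its partner Ehmt2 was at 18.8 and 26.5 TPM against 6.82 and 11.4 TPM (log2 fold change -1.25, limma adjusted p = 0.0525). Rbbp4, a histone chaperone of several silencing complexes, fell from 64.1 and 64.8 TPM to 30.1 and 33.2 TPM (limma log2 fold change -1.01 ± 0.25 SE, adjusted p = 0.0400). Mbd3, a subunit of the NuRD complex, fell from 54.4 and 57.0 TPM to 25.3 and 31.5 TPM (limma log2 fold change -0.96 ± 0.27 SE, adjusted p = 0.04995). Other settings called 0 of the 24 without a mean-variance trend, 1 with a pseudocount of 0.1 and 2 with median-ratio scaling or quantile normalization. Of all 12038 genes these settings called 2026, 2053, 2234 and 2197 in the same order. A filter at 5 TPM, which fewer of the 24 passed, gave 6, beside 2450 of the 7470 genes that passed it. With 1 library left out at a time, log2 fold changes were -1.41 to -0.86 for Ehmt1, -1.07 to -0.94 for Rbbp4 and -1.11 to -0.80 for Mbd3. None of the 3 was called when any one library was left out.

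**Figure D5:**
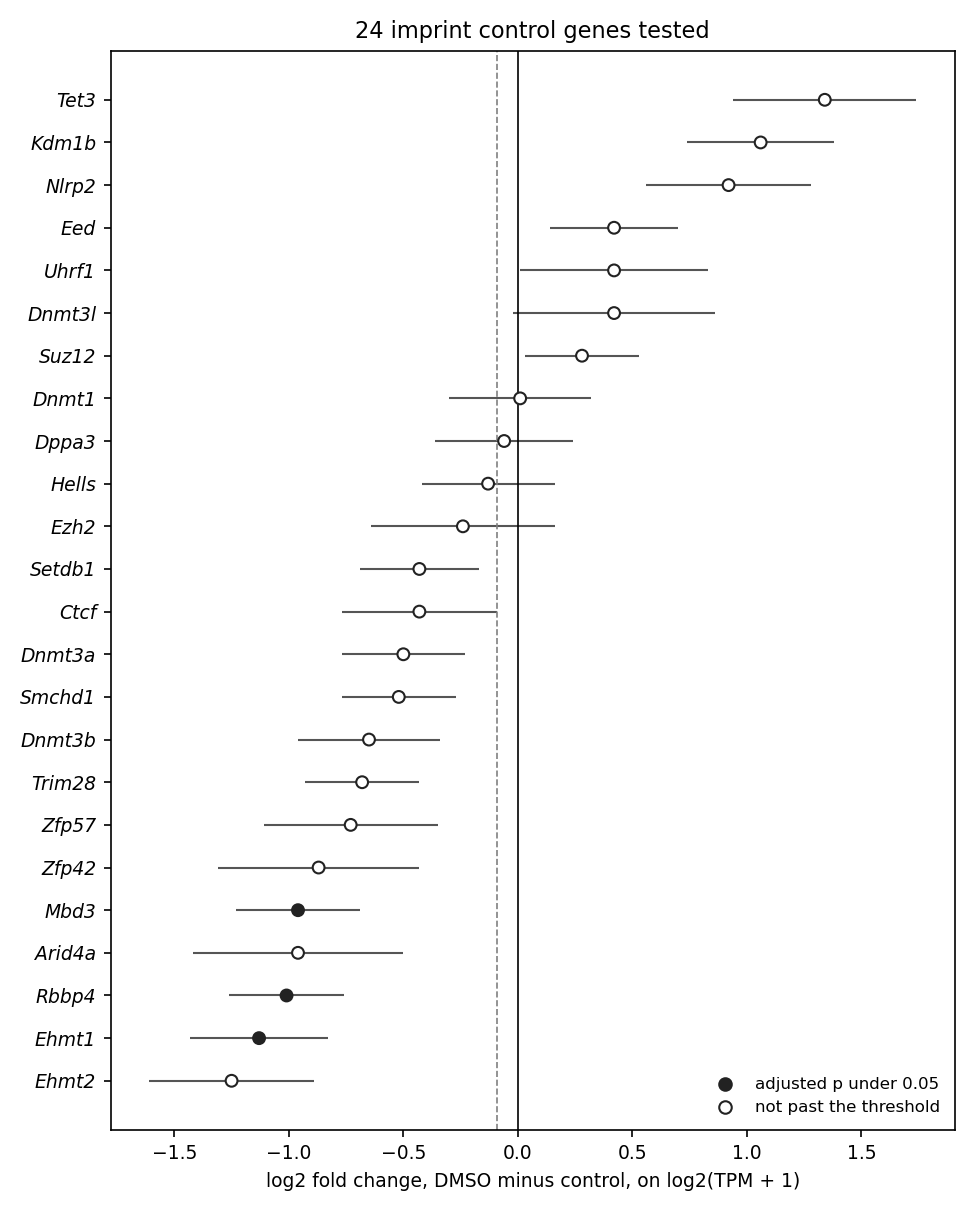
Log2 fold change (DMSO minus control, on log2(TPM + 1)) of the 24 imprint control genes tested, with bars of 1 standard error from limma, filled points for an adjusted p-value under 0.05, and a dashed line at the median of all genes tested, -0.09. Ehmt1, Rbbp4 and Mbd3 are filled, between -1.13 and -0.96.

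Dppa3 (also known as Stella), which shields the maternal genome from demethylation, was the most abundant gene of this list at 11639 and 15346 TPM against 10828 and 15216 TPM, and the groups overlapped (limma log2 fold change -0.06 ± 0.30 SE, adjusted p = 0.895). Zfp57, which binds methylated imprints, was at 5.56 and 9.29 TPM against 4.98 and 3.11 TPM (limma log2 fold change -0.73 ± 0.38 SE, adjusted p = 0.199), and between -1.05 and -0.40 on the log2 scale with 1 library left out at a time. Its corepressor Trim28 was at 525 and 566 TPM against 304 and 381 TPM (limma log2 fold change -0.68 ± 0.25 SE, adjusted p = 0.0934). Dnmt1, the maintenance DNA methyltransferase, was at 8.44 and 8.06 TPM against 9.53 and 7.27 TPM (limma log2 fold change 0.01 ± 0.31 SE, adjusted p = 0.978). Dnmt3l, a cofactor of de novo methylation, was at 39.5 and 22.1 TPM against 57.6 and 27.7 TPM, and the groups overlapped (limma adjusted p = 0.497). Tet3, which oxidizes methylated cytosine in the zygote, was at 5.81 and 3.56 TPM against 17.3 and 9.84 TPM (limma log2 fold change 1.34 ± 0.40 SE, adjusted p = 0.0559). Zfp445, another zinc finger protein that protects imprints, was listed at 0 in all libraries.

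Of 48 further genes reported as imprinted in the mouse, 42 have a row in the table, 14 were tested and limma called 0 of them beside 20.5% of all genes. Of the 14, 1, Copg2, had an unadjusted p-value under 0.05, beside 4835 of all 12038 genes. The median log2 fold change of the 14 was -0.16. Xist is among the 6 without a row. The most abundant, Blcap, which lies around Nnat, differed by -0.01 on the log2 scale (standard error 0.27, limma adjusted p = 0.973), and Zrsr1, a splicing factor retrogene, was at 23.2 and 16.3 TPM against 19.6 and 13.1 TPM (limma adjusted p = 0.582).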

How the data were processed

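There are 2 RNA-seq libraries of control and 2 of DMSO-treated 2-cell embryos, made with a low-input SMARTer kit that is not stated to mark strand. Per the methods, the authors ran kallisto against Ensembl transcripts of GRCm38, combined them per gene with tximport and deposited TPM values. TPM keeps no depth, so no counting error was derived. The submitters' processing notes also name STAR, SAMtools and bedtools. Samples were grouped by their labels.

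Gene names and positions came from GENCODE M21 (GRCm38), which named 29668 identifiers and left 381 unnamed, and promoter windows from RefSeq. All genes averaging 1 TPM or more entered limma 3.58.1 (R 4.3.3), fitted to log2(TPM + 1) with a mean-variance trend and without a replicate block. Benjamini-Hochberg adjustment ran over all of them, with a threshold of 0.05. The steps were tested on simulated data. The genes, lists and tests were chosen with earlier results of these data known. All 34 listed genes are accounted for, those with a mean of at least 1 TPM with their test. Of the imprint control and other imprinted lists, genes called and a few fixed by name are given. The single marker genes given, the other genes of the Kcnq1ot1 domain, and Ehmt2, Tet3, Kdm1b, Nlrp2, Gm20721, Gm38393, Zrsr1, Blcap, Copg2, Jade1 and Smoc1 were chosen after their values were seen. Alternatives were another pseudocount (0.1), no filter or one at 5 TPM, 2 scalings, no trend, the replicate block and leaving out each library, and, added after results had been seen, only genes averaging 1 TPM or more in each group. Shared sequence was the share of 31-base words, on either strand, found in other genes of the table. Python 3.11.15, pandas 2.3.3, numpy 2.4.6 and matplotlib 3.10.9 were used.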

Additional observations from a re-analysis of the deposited data

How the results depend on the processing

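With 2 libraries per group and no read depth in TPM values, small differences were not detectable, and calls rested on few libraries. No gene was called without the filter on low values (0 of 22257 genes, 0 imprinted genes and 0 imprint control genes, the lowest adjusted p-value being 0.102 and 5368 genes having an unadjusted p-value under 0.05). With 1 library left out at a time, where the lone library of a group is assumed to vary like the others, limma called between 0 and 1883 genes, between 0 and 4 imprinted genes and 0 imprint control genes, and the median log2 fold change of the imprinted genes was between -0.12 and 0.40. Replicate numbers are shared by the groups, but nothing in the labels says that they mark a shared batch. Across genes, same-numbered libraries deviated together (r = 0.35). Blocking on the replicate number, 5132 genes, 6 imprinted genes (Mest, Gnas and Inpp5f in addition), 8 imprint control genes (Tet3, Kdm1b and Nlrp2 higher and Ehmt2 and Trim28 lower in addition) and 2 other imprinted genes (Copg2 and Snurf) were called. The imprint control genes called were 1 with a pseudocount of 0.1 (2053 of all 12038 genes), 6 with a filter at 5 TPM (2450 of 7470 genes) and 0 without a trend (2026 of 12038 genes). In the fit reported 8 of the 24 had an unadjusted p-value under 0.05, beside 4835 of all 12038 genes. Copg2 was the 1 other imprinted gene called with a filter at 5 TPM, with median-ratio scaling (2234 of 12038 genes) and with quantile normalization (2197 genes). A mean above 5 TPM was reached by 9 imprinted genes in control embryos and by 9 in DMSO-treated embryos. The direction was kept under every alternative run for 9 of the 14 imprinted genes. With 1 library left out at a time it turned for Plagl1 (-0.04 to 0.47), Snrpn (-0.27 to 2.17), H13 (-0.17 to 0.61) and Trappc9 (-0.58 to 0.18), without DMSO replicate 2 for Plagl1 and Trappc9 and without DMSO replicate 1 for Snrpn and H13. It also turned for Ube3a with median-ratio scaling (0.00) and quantile normalization (0.14). None of these 5 genes passed the threshold in the fit reported. The cause of these shifts was not tested.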

Other observations

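A small group of genes is imprinted through histone methylation set in the oocyte and not through DNA methylation. Of these, Jade1 measured 4.85 and 2.66 TPM in control embryos and 2.01 and 1.49 TPM after DMSO, and the groups did not overlap (limma log2 fold change -0.76 ± 0.38 SE, adjusted p = 0.181, and -1.10 to -0.42 with 1 library left out at a time). Gab1, an adaptor of growth factor receptors, was at 0.604 and 2.47 TPM against 0.466 and 1.64 TPM, the groups overlapping (limma adjusted p = 0.72). Sfmbt2, a Polycomb protein, was at 0.730 and 0.120 TPM against 0.180 and 0.274 TPM. Slc38a4, an amino acid transporter, was at 0.556 and 0.336 TPM against 0.181 and 0.110 TPM, the groups not overlapping but its mean lying below the filter. Smoc1 stayed below 0.1 TPM in every library.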
